A study of Mus musculus with 8 samples.

Results

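The genes described here encode the mitochondrial carriers of the Slc25 family, with the uncoupling proteins Ucp1 and Ucp3, in ventral prostates of FVB males aged 8 weeks. They were chosen by name: a probe set belonged to the family when its only gene symbol was Slc25a followed by a number, or Ucp1, Ucp2 or Ucp3. This gave 68 of 22690 probe sets, for 35 of 12393 genes. The mouse reference gene table lists 50 such genes, and the other 15, among them the citrate carrier Slc25a1 and Ucp2, were not analysed here. RNA came from 4 samples of prostates that carry the polyoma virus middle T antigen (MT) as a transgene and 4 samples of wild-type prostates, each hybridised to its own array. Both groups share strain, sex, age and lobe. The promoter that drives the transgene and the number of animals behind each array are not given in the sources used here, so the p-values measure the spread between these arrays, which may be technical.

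Slc25 proteins sit mostly in the inner mitochondrial membrane and exchange or import metabolites that cannot cross it unaided. They move ADP and ATP, phosphate, organic acids, amino acids, acylcarnitines, nucleotides, cofactors and iron between cytosol and matrix. Uncoupling proteins belong to the same family and let protons leak back into the matrix. The prostate epithelium is known for making and secreting citrate, which leaves its mitochondria through a carrier of this family.

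All levels are log2 values from RMA, which subtracts background, gives arrays equal quantiles and combines the probes within each probe set. A difference is always the MT mean minus the wild-type mean, and a gene was called when its adjusted p in limma, a linear model with moderated variances fitted to all 12393 genes, was under 0.05. Where a gene had several probe sets, the one that was brightest on average represented it. Values after ± are SDs over 4 arrays for levels and standard errors of the fit for differences. The arrays read RNA of whole tissue, so fewer cells of a type and less RNA per cell cannot be told apart.

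Across genes, the correlation between arrays was 0.996 to 0.997 among MT, 0.992 to 0.994 among wild type and 0.963 to 0.969 for an MT with a wild-type array. The labelled tissue was checked with Pbsn, Spink1, Azgp1 and Msmb, secreted proteins of the prostate, and Hoxb13, a transcription factor of the gland. These are the 5 measured of 9 listed genes. The first 4 were lower in MT and Hoxb13 was higher, and their mean was at most 10.69 on the MT arrays and at least 12.49 on the wild-type arrays. Other cell type markers differed between the groups to unlike degrees. Their counts are read beside 41.1% of all genes called, 19.7% higher and 21.3% lower. Smooth muscle genes were lower in MT for 9 of 9 (list mean 8.19 to 8.99 in MT, 9.20 to 9.92 in wild type), fibroblast genes for 7 of 8 and skeletal muscle genes for 4 of 12. Adipocyte genes were lower for 5 of 8, with a list mean of 5.60 to 6.25 in MT and 5.91 to 7.56 in wild type. Luminal epithelial genes were higher for 11 of 11, with a list mean of 11.60 to 11.72 in MT and 10.75 to 10.92 in wild type. Macrophage genes were higher for 7 of 12 and lower for 1, lymphocyte genes higher for 4 of 10, and proliferation genes higher for 10 of 11. Basal epithelial genes were lower for 3 of 6, endothelial genes for 1 of 7 and neuronal genes for 1 of 8. The shares called in the skeletal muscle (33.3%), endothelial (14.3%) and neuronal (12.5%) lists were below that of all genes. The part of these shifts in the carrier results below was not tested. The 3′ minus 5′ log2 difference of the Gapdh control probe sets, a sign of RNA integrity, was 0.45 to 0.64 in MT and 0.55 to 0.92 in wild type (two-sided exact permutation p = 0.0857). For the Actb control probe sets it was 0.57 to 0.85 in MT and 0.71 to 1.05 in wild type (same permutation test, p = 0.114). Both control differences were thus lower on average in MT, by 0.19 for Gapdh and 0.18 for Actb.

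Of the 35 carriers, 7 were higher and 11 lower in MT. That is 51.4% called, beside 41.1% of all genes tested. The 7 are 20.0% of the carriers, beside 19.7% of all genes called higher, and the 11 are 31.4%, beside 21.3% called lower. Among genes above the median level, 14 of 24 carriers were called (3 higher, 11 lower). Of all 6196 such genes, 60.3% were called (1811 higher, 1924 lower). The higher share called in either direction was thus not seen among those genes. The carrier calls there were still mostly lower, while those of all such genes were split nearly evenly. The median log2 difference was -0.10 over the carriers and -0.01 over all genes. For 19 of the 35 carriers the MT and wild-type values did not overlap, which was so for 40.0% of all genes. Most changes were small, with a median size of 0.19 for the carriers and 0.17 for all genes. Of the 35 carriers, 6 were called with a log2 difference of at least 0.5, against 17.7% of all genes. A difference of at least 1 was called for 2 of the 35, against 5.08%. Both counts are near the shares of all genes. The rise with the largest size was that of Slc25a45, and the falls with the largest size were those of Slc25a24 and Slc25a30. Centring each array on its median changed the counts to 6 higher and 12 lower, and those of all genes to 2152 higher and 3109 lower, against 2447 higher and 2641 lower without it.

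**Figure D1:**
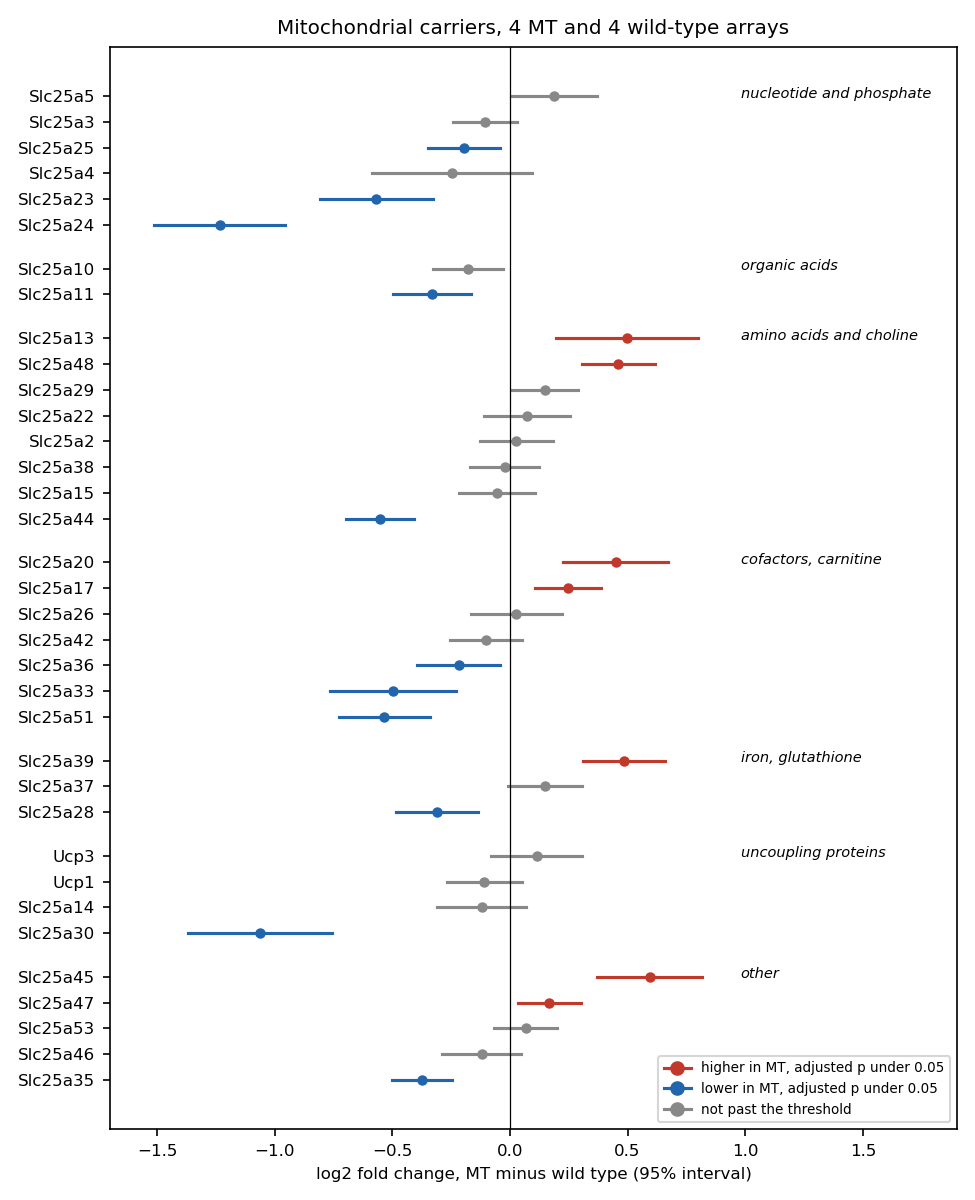
Log2 fold change, MT minus wild type, of the 35 carriers (horizontal axis) with the 95% interval of the limma fit, ordered by what they carry. Red marks the 7 called higher, blue the 11 called lower and grey the 17 not past the threshold. Slc25a24 (-1.23) and Slc25a30 (-1.06) stand farthest to the left, and Slc25a45 (0.59) farthest to the right.

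The promoters of Slc25a24 and Slc25a30, which fell the most, of Slc25a45, which rose the most, and of Slc25a39, whose 3 probe sets all rose, are shown for reference. Each is the 250 bases before the annotated start of the gene, read 5′ to 3′ along the gene, from RefSeq on GRCm38.p6. Capitals mark matches, on either strand, to a CCAAT box (CCAAT), a GC box (GGGCGG) or an Egr site (GCGTGGGCG). In Slc25a39 the Egr site overlaps a GC box.
Slc25a24, chr3:109122899-109123148, plus strand: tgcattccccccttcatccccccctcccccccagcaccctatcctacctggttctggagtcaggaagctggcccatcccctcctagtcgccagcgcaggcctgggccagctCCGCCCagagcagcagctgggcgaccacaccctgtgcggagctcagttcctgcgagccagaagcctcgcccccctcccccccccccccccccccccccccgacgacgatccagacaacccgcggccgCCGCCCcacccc
Slc25a30, chr14:75787038-75787287, minus strand: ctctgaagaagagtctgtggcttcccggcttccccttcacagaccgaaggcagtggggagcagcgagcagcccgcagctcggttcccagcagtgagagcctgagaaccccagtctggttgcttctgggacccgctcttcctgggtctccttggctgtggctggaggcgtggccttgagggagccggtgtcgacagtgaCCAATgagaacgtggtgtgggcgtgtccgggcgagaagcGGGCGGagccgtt
Slc25a45, chr19:5877572-5877821, plus strand: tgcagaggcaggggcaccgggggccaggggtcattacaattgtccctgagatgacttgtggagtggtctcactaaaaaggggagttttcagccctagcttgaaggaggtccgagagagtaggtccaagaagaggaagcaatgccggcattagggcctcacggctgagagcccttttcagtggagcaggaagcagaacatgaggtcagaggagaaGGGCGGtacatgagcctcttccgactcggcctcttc
Slc25a39, chr11:102407518-102407767, minus strand: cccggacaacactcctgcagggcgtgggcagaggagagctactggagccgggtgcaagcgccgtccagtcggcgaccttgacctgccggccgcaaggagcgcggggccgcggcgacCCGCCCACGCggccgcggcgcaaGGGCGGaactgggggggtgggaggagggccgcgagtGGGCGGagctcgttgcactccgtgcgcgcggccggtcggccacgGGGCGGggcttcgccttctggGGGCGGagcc

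All 4 windows are rich in G and C, with 72.8% in Slc25a24, 64.4% in Slc25a30, 56.4% in Slc25a45 and 77.2% in Slc25a39. Of the 35 carriers, 28 had at least 1 such window in the table. Carriers were counted as genes, with a match in any window of the gene, while the percentages below are of single windows. A gene with several windows could match more easily, so counts and percentages are not directly comparable. A GC box was present for 21 of the 28 (in 32.7% of all 32851 windows of this length) and a CCAAT box for 15 (33.8%). A TATA box (TATAAA), held by 12.4% of all windows, was found for 0 of the 28. An E-box (CACGTG) was found for 5 carriers (6.02% of all windows), an ETS site (CCGGAAG) for 5 (6.91%), an AP-1 site (TGANTCA) for 2 (6.75%), an Egr site for 2 (0.536%), an ATF and CREB site (TGACGTCA) for 2 (1.55%) and an NRF1 site for 0 (0.782%). These matches describe letters in the windows and no binding was measured.

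Carriers of adenine nucleotides and phosphate were measured for 6 genes, of which 3 fell and 0 rose, with a median of -0.22. The 3 that fell were the calcium-regulated ATP-Mg/phosphate carriers, which adjust the adenine nucleotide content of the matrix. Slc25a24 read 6.18, 5.93, 6.34 and 6.14 on the MT arrays, against 7.15, 7.67, 7.17 and 7.53 on the wild-type arrays. Every MT array lay far below every wild-type array, and the log2 fold change was -1.23 ± 0.13 (adjusted p = 1.64e-05), a level 2.35-fold lower in MT. Slc25a23, its relative, read 7.89, 7.74, 7.51 and 7.72 on the MT arrays, against 8.46, 8.41, 8.01 and 8.26 on the wild-type arrays. The groups did not overlap, though MT array 1 stood close to wild-type array 3, and the difference was -0.57 ± 0.11 (adjusted p = 0.00156). Slc25a25, the third member of this subfamily, averaged 6.84 ± 0.07 in MT and 7.03 ± 0.10 in wild type. Its difference of -0.19 ± 0.07 passed narrowly (adjusted p = 0.0445), was lost when any of 7 single arrays was left out (adjusted p 0.051 to 0.125; it held only without wild-type array 4), and was lost with the replicate number as a block (adjusted p = 0.0611).

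The ADP/ATP carriers, which exchange cytosolic ADP for matrix ATP, did not pass. Slc25a4, the form of heart and skeletal muscle, read 9.07, 8.78, 9.00 and 9.13 on the MT arrays, against 9.27, 8.73, 9.42 and 9.55 on the wild-type arrays. Wild-type array 2 was the lowest of all 8 and made the groups overlap. The difference was -0.25 ± 0.16 (adjusted p = 0.238), and it moved with the arrays used. It was -0.42 without wild-type array 2 (adjusted p = 0.00646), -0.14 without wild-type array 4 (adjusted p = 0.504) and -0.072 when MT array 2 was dropped as well (adjusted p = 0.773). Wild-type array 2 and MT array 2 also had the lowest means of their groups for smooth muscle markers (9.20 and 8.19). The same 2 arrays were lowest for skeletal muscle markers (5.31 in wild-type array 2, 4.80 in MT array 2). The part of muscle tissue in the Slc25a4 levels was not tested. Among the 4 probe sets of Slc25a4 the differences ran from -0.34 to -0.25, and 2 of them were called lower. One of these 2, with means of 3.40 in MT and 3.66 in wild type, was no higher than the bacterial controls on 6 of 8 arrays, so its level is not distinguished from background.

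Slc25a5, the ADP/ATP carrier of most tissues and of dividing cells, read 11.85, 11.65, 11.66 and 11.69 on the MT arrays, against 11.51, 11.66, 11.33 and 11.60 on the wild-type arrays. Wild-type array 2 fell among the MT values, and the difference was 0.19 ± 0.08 (adjusted p = 0.0969). All 8 of its probe sets had positive differences, from 0.06 to 0.27, and 3 were called higher. Averaged over these probe sets, the difference was again 0.19 and passed (adjusted p = 0.0281), as it did after renewed quantile normalization (0.21, adjusted p = 0.0396). On its unique-type probe set the difference was 0.062 and did not pass (adjusted p = 0.549). Unique-type here means a plain _at name. This also leaves out probe sets that cover several transcripts of 1 gene, so it does not single out the gene-specific ones. Most probe sets of Slc25a5 are of a type that can share probes with other genes, so the level of Slc25a5 is uncertain. The Slc25a4 probe set called lower at a level above background is of this type too. Slc25a3, the carrier that brings phosphate to ATP synthase, read 11.60, 11.61, 11.54 and 11.59 on the MT arrays, against 11.72, 11.65, 11.62 and 11.78 on the wild-type arrays. All MT values were lower, by little, and the difference of -0.11 ± 0.06 did not pass (adjusted p = 0.196).

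**Figure D2:**
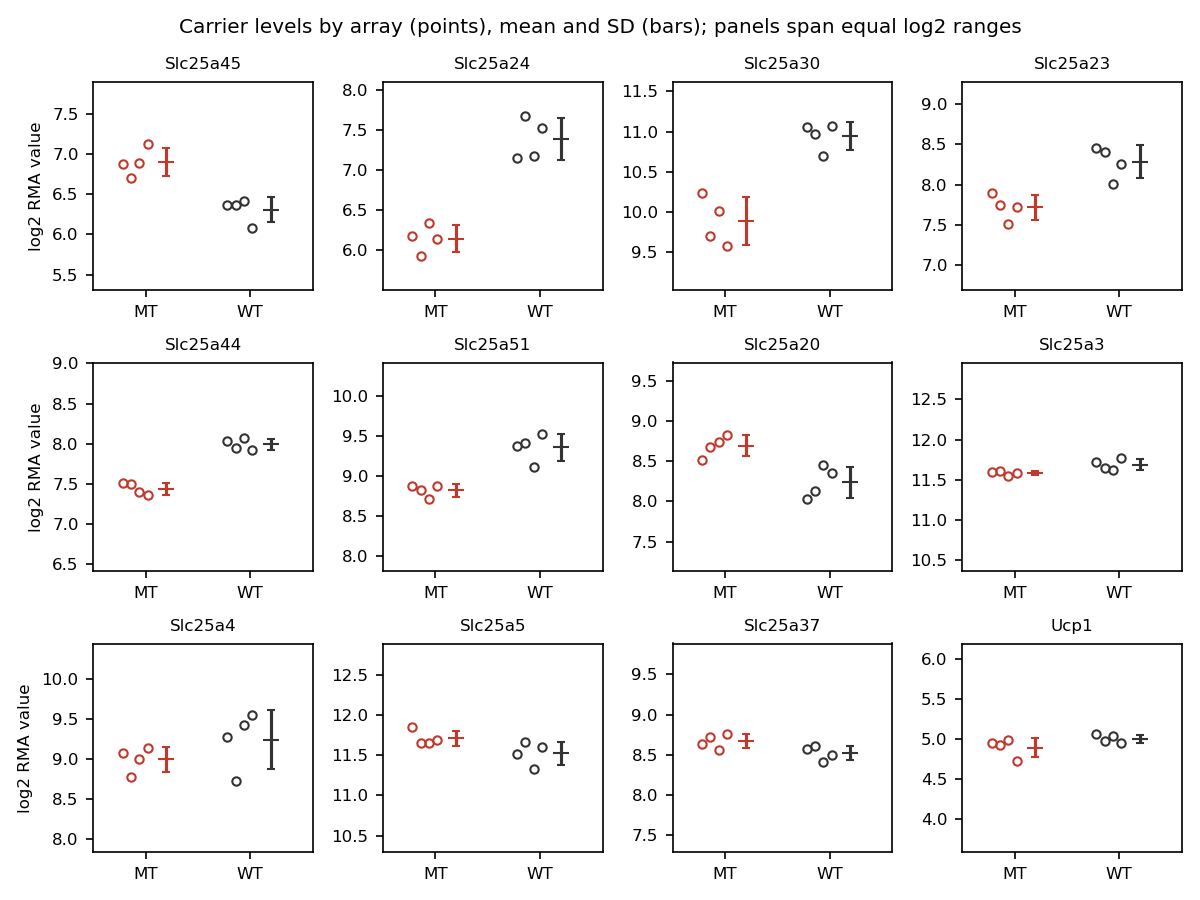
Log2 RMA value (vertical axis) of 12 carriers on each array, MT in red on the left and wild type in black on the right of each panel, with the mean and SD of 4 arrays as bars. The groups are apart for Slc25a45, Slc25a24, Slc25a30, Slc25a23, Slc25a44, Slc25a51, Slc25a20 and Slc25a3, and they overlap for Slc25a4, Slc25a5, Slc25a37 and Ucp1.

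Of the carriers of organic acids, 2 were measured. Slc25a11, the 2-oxoglutarate/malate carrier of the malate-aspartate shuttle, averaged 9.34 ± 0.11 in MT and 9.67 ± 0.09 in wild type, with no overlap, and fell by 0.33 on the log2 scale (adjusted p = 0.00445). Slc25a10, the dicarboxylate carrier that exchanges malate or succinate for phosphate, averaged 8.81 ± 0.06 in MT and 8.99 ± 0.09 in wild type. Its difference of -0.18 ± 0.07 missed the threshold (adjusted p = 0.0541), and leaving out wild-type array 3 brought it past (-0.22, adjusted p = 0.0264), as did median centring (-0.22, adjusted p = 0.0223).

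The list of shuttle enzymes went both ways, with 5 of 12 higher and 4 lower and a median of 0.16. It holds enzymes of the malate-aspartate and citrate shuttles, which act on metabolites that carriers of this family move. It also holds Gpd1 and Gpd2 of the glycerol phosphate shuttle, which do not. Gpd2, the mitochondrial enzyme of the glycerol phosphate shuttle, averaged 8.33 ± 0.09 in MT and 7.27 ± 0.14 in wild type, a rise of 1.05 ± 0.08 (adjusted p = 2.03e-06). The matrix aspartate aminotransferase Got2 rose by 0.69 ± 0.07 (adjusted p = 1.58e-05), or 0.40 on probe sets of the unique type (adjusted p = 0.0209). Its cytosolic partner Got1 fell by 0.52 on the log2 scale (adjusted p = 0.00048).

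Of 8 carriers of amino acids and choline, 2 rose and 1 fell, with a median of 0.05. Slc25a44, a carrier of branched-chain amino acids, read 7.51, 7.50, 7.40 and 7.36 on the MT arrays, against 8.04, 7.95, 8.07 and 7.93 on the wild-type arrays. The groups were tight and well apart, with a difference of -0.55 ± 0.07 (adjusted p = 5.33e-05). Of its 3 probe sets, 2 fell and the third differed by 0.06, which brought the average over probe sets to -0.27 (adjusted p = 0.00521). Slc25a13, the aspartate/glutamate carrier citrin, averaged 5.25 ± 0.33 in MT and 4.75 ± 0.08 in wild type and rose by 0.50 ± 0.14 (adjusted p = 0.0129). Its MT arrays ran from 5.04 to 5.74, with array 1 alone at the top, and without that array the rise was 0.33 (adjusted p = 0.0058).

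Slc25a48, a choline carrier, averaged 6.75 ± 0.06 in MT and 6.29 ± 0.10 in wild type and rose by 0.46 ± 0.07 (adjusted p = 0.000326). Its other probe set differed by -0.04, and the average over both was 0.21 (adjusted p = 0.0231). The remaining 5 carriers of this group did not pass. The glutamate carrier Slc25a22 differed by 0.07 ± 0.08, the glycine carrier Slc25a38, needed for haem synthesis, by -0.02 ± 0.07, and the ornithine/citrulline carrier Slc25a15 by -0.05 ± 0.07. For Slc25a29, a carrier of basic amino acids, the difference was 0.15 ± 0.06 (adjusted p = 0.0882), and 1 of its 5 probe sets was called lower (-0.23, adjusted p = 0.0325). Slc25a2, an ornithine carrier, read 3.50 to 3.66 in MT and 3.40 to 3.62 in wild type. On 3 of 4 arrays of each group it was no higher than the highest of 12 bacterial control probe sets, so its level is not distinguished from background.

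Enzymes of ornithine and arginine metabolism, whose substrates pass through Slc25a15, were lower for 4 and higher for 1 of 9. Arg1, a cytosolic arginase, averaged 8.38 ± 0.14 in MT and 5.78 ± 0.14 in wild type, a rise of 2.60 ± 0.09 (adjusted p = 7.82e-09). Odc1, which turns ornithine into putrescine, averaged 9.67 ± 0.09 in MT and 11.18 ± 0.09 in wild type and fell by 1.52 on the log2 scale (adjusted p = 6e-08). Aldh18a1, which makes the precursor of proline and ornithine in the matrix, fell by 1.47 (adjusted p = 2.48e-07).

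Carriers of cofactors, nucleotides and acylcarnitine were measured for 7 genes, of which 2 rose and 3 fell. Slc25a20, the carnitine/acylcarnitine carrier that admits fatty acyl groups for oxidation, read 8.52, 8.67, 8.75 and 8.83 on the MT arrays, against 8.03, 8.13, 8.45 and 8.36 on the wild-type arrays. The groups did not overlap, but MT array 1 stood only slightly above wild-type array 3. The rise was 0.45 ± 0.10 (adjusted p = 0.00425), and its second probe set differed by 0.21 without passing (adjusted p = 0.0646). Slc25a17, the peroxisomal carrier of coenzyme A and related cofactors, averaged 8.36 ± 0.07 in MT and 8.11 ± 0.05 in wild type and rose by 0.25 ± 0.06 (adjusted p = 0.00869). That call was lost when its 2 probe sets were averaged (0.18, adjusted p = 0.105).

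Slc25a51, the NAD carrier, read 8.88, 8.82, 8.71 and 8.87 on the MT arrays, against 9.37, 9.42, 9.12 and 9.52 on the wild-type arrays. All MT values were lower, with a difference of -0.53 ± 0.09 (adjusted p = 0.000544), and -0.34 as the average of its 3 probe sets (adjusted p = 0.00128). Both pyrimidine nucleotide carriers were called lower. Slc25a33 averaged 7.42 ± 0.25 in MT and 7.92 ± 0.16 in wild type and fell by 0.50 on the log2 scale (adjusted p = 0.00658). Slc25a36 averaged 9.35 ± 0.12 in MT and 9.57 ± 0.10 in wild type, with overlapping groups and a difference of -0.22 ± 0.08 (adjusted p = 0.0474). That narrow call was lost without any of 6 single arrays, all but MT array 4 and wild-type array 2 (adjusted p 0.0721 to 0.131), when its probe sets were averaged (-0.17, adjusted p = 0.0581), and on the unique-type probe set (-0.12, adjusted p = 0.477). The coenzyme A carrier Slc25a42 (-0.10 ± 0.07) and the S-adenosylmethionine carrier Slc25a26 (0.03 ± 0.09) did not pass.

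Genes that share substrates with these carriers were mixed as well. In the carnitine shuttle and beta-oxidation list 3 of 14 were higher and 4 lower, with a median of -0.06. Etfa and Etfdh, which pass electrons from fatty acid oxidation to the respiratory chain, fell by 0.67 (adjusted p = 6e-05) and 0.57 (adjusted p = 0.000115) on the log2 scale, and the short-chain dehydrogenase Acads rose by 0.37 ± 0.06 (adjusted p = 0.000366). Among 7 enzymes and transporters for coenzyme A and thiamine, 2 rose and 2 fell. Ppcs and Pank1, enzymes of coenzyme A synthesis, rose by 0.60 ± 0.07 (adjusted p = 7.22e-05) and 0.53 ± 0.09 (adjusted p = 0.000824). The related kinase Pank3 fell by 0.57 (adjusted p = 6.52e-05), with -0.32 as the average of its probe sets (adjusted p = 0.0233). Of 6 genes of mitochondrial folate and glycine metabolism, 4 fell and 1 rose, with a median of -0.45. Mthfd2, an enzyme of the folate cycle in the matrix, averaged 7.41 ± 0.16 in MT and 8.74 ± 0.30 in wild type and fell by 1.33 (adjusted p = 1.52e-05). Dld and Gldc, parts of the glycine cleavage system, fell by 0.56 (adjusted p = 0.00162) and 0.51 (adjusted p = 0.00345).

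Iron and glutathione carriers were measured for 3 genes, with 1 higher and 1 lower. Slc25a39, which imports glutathione into the matrix, averaged 11.60 ± 0.07 in MT and 11.12 ± 0.14 in wild type and rose by 0.49 ± 0.08 (adjusted p = 0.000519). All 3 of its probe sets rose, by 0.33 to 0.94. The one that stands for the gene and the one with the rise of 0.94 can share probes with other genes. The remaining one rose by 0.33 (adjusted p = 0.00672 in the limma fit over probe sets). Slc25a39 had no unique-type probe set. The mitoferrins import iron for haem and iron-sulphur clusters. Slc25a28, mitoferrin 2, averaged 7.30 ± 0.10 in MT and 7.61 ± 0.12 in wild type and fell by 0.31 on the log2 scale (adjusted p = 0.00804). Slc25a37, mitoferrin 1, the form of red cell precursors, read 8.64, 8.72, 8.56 and 8.76 on the MT arrays, against 8.57, 8.61, 8.41 and 8.50 on the wild-type arrays. The groups overlapped, and the difference of 0.15 ± 0.07 did not pass (adjusted p = 0.119). Of 5 red cell precursor markers, limma called 0, with 0 at an unadjusted p under 0.05, and their mean was 4.28 to 4.45 in MT and 4.30 to 4.46 in wild type.

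Haem and iron-sulphur cluster genes were lower for 5 and higher for 1 of 11, with a median of -0.25. The cluster scaffold Iscu averaged 9.57 ± 0.12 in MT and 10.28 ± 0.09 in wild type and fell by 0.71 (adjusted p = 2.58e-05). The co-chaperone Hscb fell by 0.49 (adjusted p = 0.000181), and Alas2, the first haem enzyme of red cell precursors, by 0.60 (adjusted p = 0.00606). In the list of glutathione synthesis and use, 3 of 10 were higher and 3 lower. Gss and Gclc, enzymes that make glutathione in the cytosol, rose by 0.54 ± 0.08 (adjusted p = 0.000312) and 0.27 ± 0.06 (adjusted p = 0.00371), and the mitochondrial glutaredoxin Glrx2 fell by 0.49 (adjusted p = 0.000155).

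Of 4 uncoupling proteins and their close relatives, 1 fell and 0 rose. Slc25a30, a relative of the uncoupling proteins, read 10.24, 9.71, 10.01 and 9.58 on the MT arrays, against 11.05, 10.97, 10.69 and 11.07 on the wild-type arrays. All MT arrays were lower, and they spread more widely than the wild-type arrays (SD 0.30 in MT, 0.17 in wild type). The difference was -1.06 ± 0.14 (adjusted p = 0.0001), or 2.09-fold lower in MT. Of its 5 probe sets, 4 fell, by 0.90 to 1.50 on the log2 scale, and the fifth, with means of 3.22 in MT and 3.15 in wild type, differed by 0.07. Slc25a14, another such relative, averaged 6.53 ± 0.11 in MT and 6.65 ± 0.14 in wild type and did not pass (-0.12 ± 0.09, adjusted p = 0.301).

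Ucp1, the proton leak of brown fat, read 4.95, 4.92, 4.98 and 4.72 on the MT arrays, against 5.06, 4.97, 5.03 and 4.94 on the wild-type arrays. The values overlapped and differed by -0.11 ± 0.07 (adjusted p = 0.264). Of 7 brown adipocyte markers, 1 was higher and 2 were lower, with a median of -0.02, and they had a list mean of 4.15 to 4.38 in MT and 4.39 to 4.59 in wild type, and Zic1 was within the range of the bacterial controls on all 8 arrays. Ucp3, the form of skeletal muscle and brown fat, averaged 5.88 ± 0.15 in MT and 5.76 ± 0.11 in wild type and differed by 0.11 ± 0.09 (adjusted p = 0.346), while its second probe set differed by -0.20 (adjusted p = 0.12).

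Among 5 other family members, 2 rose and 1 fell. Slc25a45 read 6.87, 6.71, 6.89 and 7.13 on the MT arrays, against 6.36, 6.37, 6.42 and 6.08 on the wild-type arrays. The groups did not overlap, and the rise was 0.59 ± 0.10 (adjusted p = 0.000726), or 1.51-fold. Slc25a35 had the tightest groups of the called carriers, at 6.27 ± 0.04 in MT and 6.65 ± 0.03 in wild type, and fell by 0.37 on the log2 scale (adjusted p = 0.000317). Slc25a47, a carrier of liver mitochondria, averaged 5.69 ± 0.05 in MT and 5.53 ± 0.06 in wild type and was called higher by 0.17 ± 0.06 (adjusted p = 0.0445). The call was lost without any of 7 single arrays, all but MT array 1 (adjusted p 0.0505 to 0.104), after median centring (0.13, adjusted p = 0.111) and with the replicate number as a block (adjusted p = 0.0759). Slc25a46, an outer-membrane member that acts in mitochondrial shape, differed by -0.12 ± 0.08 (adjusted p = 0.241). Its second probe set fell by 0.28 (adjusted p = 0.0138), and the average of both passed (-0.20, adjusted p = 0.0131). Slc25a53 differed by 0.07 ± 0.06 (adjusted p = 0.424).

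Counted as probe sets, 11 of the 68 were higher and 18 lower at an adjusted p under 0.05 over all 22626 probe sets that are not controls. These 29 are 42.6% of the carrier probe sets, beside 37.8% of all probe sets. Of the 16 carriers with several probe sets, 0 had calls in both directions and 10 had some probe sets that passed and others that did not. Of the carriers called by gene, 3 did not pass in this wider fit: Slc25a36 with 0 of 2 probe sets (lowest adjusted p = 0.0530), and Slc25a25 (adjusted p = 0.0504) and Slc25a47 (adjusted p = 0.0512) with their only probe set.

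**Figure D3:**
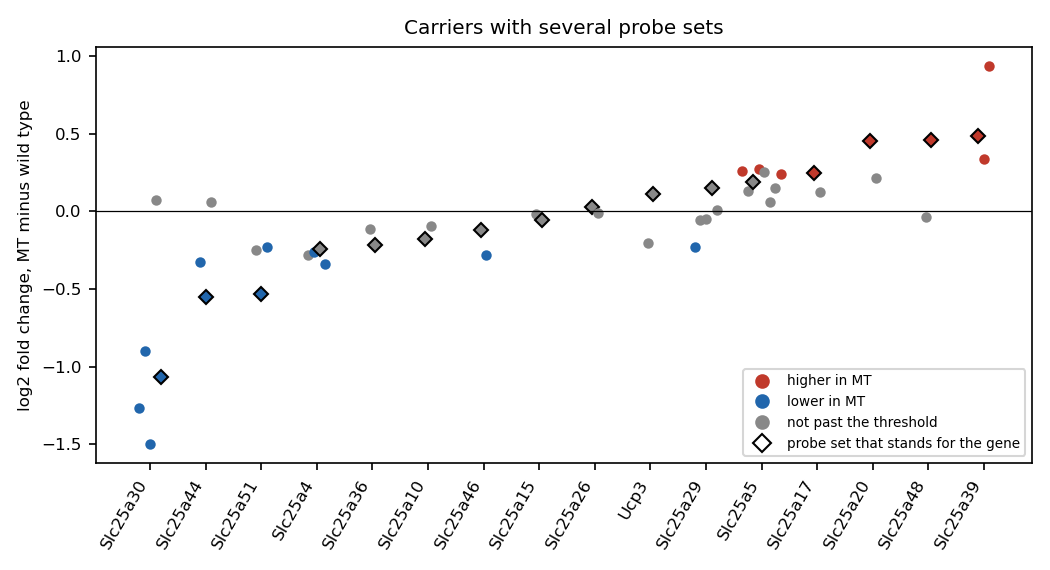
Log2 fold change, MT minus wild type (vertical axis), of each probe set of the 16 carriers that have several, with diamonds for the probe set that stands for the gene. Red is called higher, blue called lower, grey not past the threshold. The 3 probe sets of Slc25a39 are all above 0, and 4 of the 5 of Slc25a30 lie between -1.50 and -0.90.

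Whether close relatives changed unequally was tested on 8 pairs, as the difference between their log2 values on each array, by exact permutation of the group labels (two-sided, 70 ways, smallest possible p 0.0286). Slc25a24 minus Slc25a25 averaged -0.69 ± 0.23 in MT and 0.35 ± 0.25 in wild type, a change of -1.04 ± 0.17. Slc25a14 minus Slc25a30 changed by 0.94 ± 0.20. Slc25a37 minus Slc25a28, the mitoferrins, averaged 1.37 ± 0.15 in MT and 0.91 ± 0.17 in wild type, a change of 0.46 ± 0.11. In these 3 pairs the groups did not overlap and the exact p was 0.0286, which adjusted over the 8 pairs is 0.0762 and does not pass. This exact p is the smallest possible, so with only 3 pairs reaching it the adjusted value could not be lower. The adjusted test therefore could not decide for these pairs, whatever the size of their changes. Slc25a24 minus Slc25a23 changed by -0.67 ± 0.20 (exact p = 0.0571, adjusted 0.114) and Slc25a4 minus Slc25a5 by -0.43 ± 0.24 (exact p = 0.143, adjusted 0.229). For the other 3 pairs, Slc25a33 with Slc25a36, Slc25a10 with Slc25a11 and Slc25a15 with Slc25a2, the exact p was 0.2 to 0.571.

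**Figure D4:**
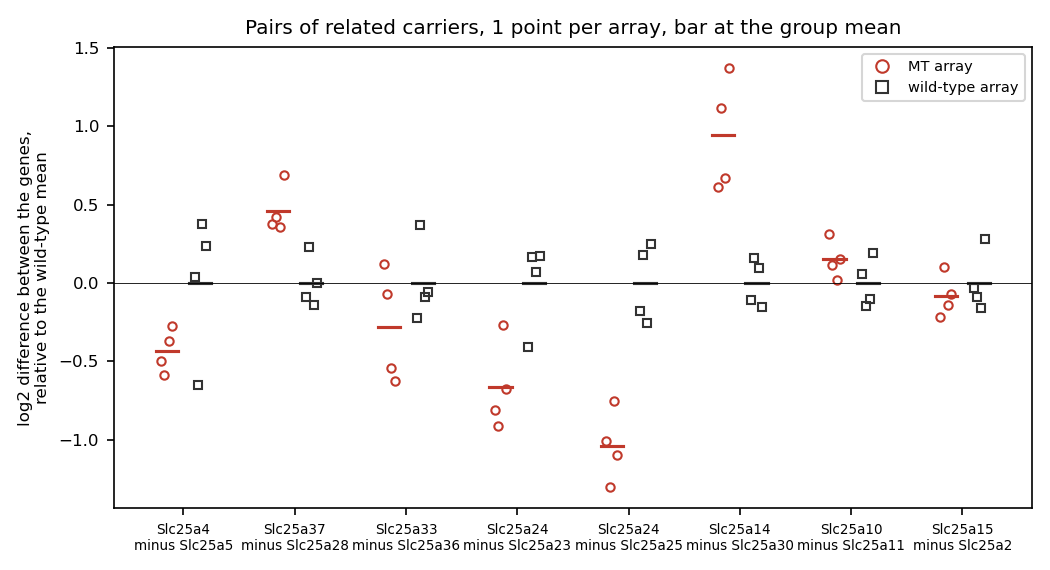
Difference between the log2 values of 2 related carriers on each array, relative to the wild-type mean of the pair (vertical axis), with MT arrays as red circles on the left and wild-type arrays as black squares on the right of each pair and bars at the means. The groups are apart for Slc25a37 minus Slc25a28, Slc25a24 minus Slc25a25 and Slc25a14 minus Slc25a30.

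Genes that insert, supply or surround the carriers were read beside them. Over 14 lists, 137 related genes were measured, of which 31 rose and 39 fell, 51.1% in all, beside 41.1% of all genes tested (19.7% higher and 21.3% lower). The counts of the single lists are read against the same shares. Of all genes above the median level, 60.3% were called, so a list of strongly expressed genes can exceed these shares. The machinery that brings carriers to the inner membrane had 4 of 14 higher and 3 lower: the intermembrane space chaperones Timm10 and Timm13 rose by 0.33 ± 0.08 (adjusted p = 0.00425) and 0.30 ± 0.07 (adjusted p = 0.0065), and Timm29, a subunit of the carrier translocase, fell by 0.43 (adjusted p = 0.000322). The presequence import machinery had 1 of 8 higher and 2 lower. The values were, for Timm44, 0.32 ± 0.06 (adjusted p = 0.00201; 0.12 and adjusted p = 0.129 on unique-type probe sets) and, for Timm17b, -0.37 ± 0.08 (adjusted p = 0.00255; -0.63 on unique-type probe sets). The exchange factor Grpel1 fell by 0.26 (adjusted p = 0.017), a call lost without MT array 3 (adjusted p = 0.0559) or MT array 4 (adjusted p = 0.0512). Of the outer-membrane porins, Vdac3 rose by 0.29 ± 0.06 (adjusted p = 0.00369) and Vdac1 was called higher by 0.20 ± 0.07 (adjusted p = 0.0347), a call lost without any of 5 single arrays (adjusted p 0.0650 to 0.0879) and after median centring (0.17, adjusted p = 0.0750). Vdac1 differed by 0.067 as the average of its probe sets (adjusted p = 0.398) and by 0.11 on unique-type probe sets (adjusted p = 0.443). In the same list Mpc1, a subunit of the mitochondrial pyruvate carrier, which is no Slc25 protein, fell by 0.44 (adjusted p = 0.00278).

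ATP synthase, which uses the phosphate and ADP that carriers deliver, had 4 of 16 genes higher and 3 lower, with a median of -0.05. The subunit Atp5o fell by 0.33 (adjusted p = 0.00109) and Atp5d rose by 0.33 ± 0.07 (adjusted p = 0.0029). Its inhibitor Atpif1 averaged 9.89 ± 0.04 in MT and 8.96 ± 0.05 in wild type and rose by 0.92 ± 0.06 (adjusted p = 5.23e-07). On the unique-type probe set of Atpif1 the difference was 0.07 (adjusted p = 0.512), and which probe set reads the gene better was not tested. Regulators of mitochondrial biogenesis had 3 of 11 higher and 4 lower. The nuclear receptor Esrra rose by 0.48 ± 0.06 (adjusted p = 7.08e-05) and the mitochondrial DNA polymerase Polg by 0.49 ± 0.07 (adjusted p = 0.000327), and Tfb1m, a methyltransferase of the mitochondrial ribosome, fell by 0.52 (adjusted p = 0.00075). In the list of inner membrane shape and fission-fusion 1 of 12 was called, Mtch2, an outer-membrane relative of the carriers (0.47 ± 0.08, adjusted p = 0.000909), and on its unique-type probe set the difference was -0.06 (adjusted p = 0.601). In the calcium uptake list 3 of 8 genes were measured, Smdt1, Letm1 and Slc8b1. Limma called 0 of them, with 0 at an unadjusted p under 0.05. Only Smdt1 is a subunit of the uptake channel, the uniporter, and it differed by 0.05 ± 0.06 (adjusted p = 0.568). The other measured genes encode ion exchangers, so the list says little about uptake.

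**Figure D5:**
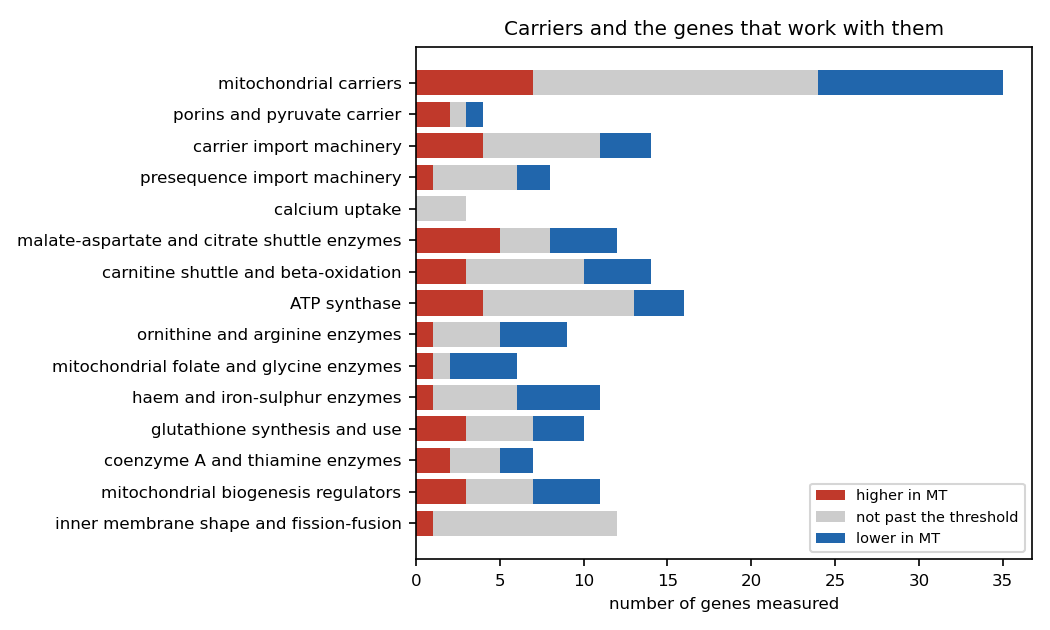
Number of measured genes (horizontal axis) called higher in MT (red), not past the threshold (grey) and called lower in MT (blue) for the 35 carriers and 14 lists of genes that work with them. The carriers show 7 higher and 11 lower, and the 137 genes of the lists show 31 higher and 39 lower. Single lists vary: 4 of 6 folate and glycine genes and 4 of 9 ornithine and arginine genes are lower. Of the 12 shuttle enzymes 5 are higher and 4 lower. Of all genes tested, 19.7% are higher and 21.3% lower.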

How the data were processed

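RNA from 8 ventral prostate samples, 4 MT and 4 wild type, was hybridised to Affymetrix arrays. The authors deposited log2 values made with RMA, per the submitters' processing notes, with no version stated there. Of 22690 probe sets, 64 were controls, 20380 had 1 gene symbol, 691 had several and 1555 had none in GEO's platform annotation. Of those with 1 symbol, 20351 had a gene ID in the reference gene table, and 0 symbols changed. The probe set with the highest mean stood for each of 12393 genes. The array medians were 6.21 to 6.23, and the number of arrays limits the precision.

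MT was compared with wild type by limma 3.58.1 (R 4.3.3; lmFit and eBayes) over all genes, with Benjamini-Hochberg adjustment and a threshold of 0.05, without a replicate block. A second fit covered 22626 probe sets. Pairs of relatives were compared by an exact permutation test. The fit was tested on simulated data. Alternatives changed the probe set of a gene, the filter on low values, the normalization, the variance prior, array weights, the threshold, the replicate block and the arrays used. The setting without both wild-type array 4 and MT array 2, the settings for the related lists and the thresholds for probe sets were chosen after seeing the data.

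The titles number the replicates alike in both groups. Deviations of same-numbered arrays from their group means correlated at 0.10 to 0.18, and 8 of 8 arrays correlated best with their own number, so a fit with the number as a block is reported where it changes a call. The pairing rests on the data alone, and neither the main calls nor the permutation tests use it. A level was called not distinguished from background when it was no higher than the highest of 12 bacterial control probe sets on that array.

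Every measured carrier is accounted for. Values on each array are given for called carriers that differ by at least 0.5 and for Ucp1, Slc25a3, Slc25a4, Slc25a5, Slc25a20 and Slc25a37. Of each related list, up to 3 called members with the largest change are named, or the member with the highest level where 0 were called. The carriers and the lists were chosen with earlier results of these data known. Figures were drawn with matplotlib 3.10.9.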

Additional observations from a re-analysis of the deposited data

Results flagged for a closer look

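In 11 of 146 groups of 4 arrays, over 73 genes, the highest or lowest array stood far from the other 3 by Dixon's criterion. Chance alone marks some groups in this way. Among the carriers, Slc25a13 was 5.74 on MT array 1, with the nearest other MT array at 5.16. Slc25a15 was 6.75 on MT array 2 (nearest 6.59), and Slc25a42 was 6.89 on MT array 4 (nearest 6.73). In wild type, Slc25a36 was 9.42 on array 2 (nearest 9.61), Slc25a39 was 10.91 on array 3 (nearest 11.18) and Slc25a45 was 6.08 on array 4 (nearest 6.36). Among related genes, Pank3 was 8.00 on MT array 1 (nearest 7.85) and Tfb1m was 5.75 on MT array 4 (nearest 5.90). In wild type, Timm13 was 9.19 on array 3 (nearest 9.39), Dld was 7.89 on array 1 (nearest 8.18) and Esrra was 6.64 on array 1 (nearest 6.70).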

How the results depend on the processing

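Of the 18 called carriers, 14 kept their call under every setting run other than a change of threshold, and Slc25a17, Slc25a25, Slc25a36 and Slc25a47 lost it under some. Of the 17 not called, Slc25a4, Slc25a5, Slc25a10 and Slc25a46 passed under some settings and 13 under none. Leaving out 1 array in turn gave 15 to 17 called carriers (6 to 7 higher, 9 to 11 lower), 4476 to 4972 of all genes, against 5088, and 62 to 74 of the related genes, against 70. A test against a log2 change of 0.25 (limma treat) called 8 carriers (3 higher, 5 lower), 2119 genes and 25 related genes. Asking for a change of at least 0.5 left 6 carriers (1 higher, 5 lower), 2192 genes, 21 related genes and 10 of 29 probe sets, and an adjusted p under 0.01 left 19 probe sets. Among the 6196 genes above the median level, 1811 were higher and 1924 lower, 60.3% in all. Of these genes 24 were carriers, with 14 called (3 higher, 11 lower). Slc25a4 minus Slc25a5 averaged over probe sets changed by -0.47 (exact permutation p = 0.0286, before adjustment over the pairs), and the cause was not tested. Mtch2 turned to -0.061 on its unique-type probe set, and the cause was not tested. Leaving out 1 array moved the pair changes within -0.65 to -0.31 for Slc25a4 minus Slc25a5, 0.38 to 0.54 for Slc25a37 minus Slc25a28, -0.41 to -0.16 for Slc25a33 minus Slc25a36, -0.80 to -0.58 for Slc25a24 minus Slc25a23, -1.14 to -0.95 for Slc25a24 minus Slc25a25, 0.80 to 1.05 for Slc25a14 minus Slc25a30, 0.10 to 0.21 for Slc25a10 minus Slc25a11 and -0.14 to 0.01 for Slc25a15 minus Slc25a2.

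With the replicate number as a block, 16 carriers were called (6 higher, 10 lower), and 2490 genes were higher and 2721 lower. The block ended the calls of Slc25a25 (adjusted p = 0.0611) and Slc25a47 (adjusted p = 0.0759) and changed no other carrier call. Without wild-type array 4 and MT array 2, chosen after seeing the data, 5 carriers were higher and 10 lower. Slc25a2, the fifth probe set of Slc25a30 and the unique-type probe set of Slc25a4, on which Slc25a4 passed (-0.26, adjusted p = 0.0360), lie near background, where small changes cannot be read.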
